A study of Mus musculus with 2 samples.

Results

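Small nucleolar RNAs of the mouse adrenal gland were examined as the 141 genes whose symbol begins with Snord or Snora, out of 55450 named genes in the deposited tables. The 99 Snord genes carry the names of the box C/D class and the 42 Snora genes those of the box H/ACA class. Genes were chosen by symbol alone, with no measured value in the rule. The annotated biotype was snoRNA for every gene of the set but Snord43, a C/D gene annotated as a miRNA. The symbols Snord80, Snora43 and Snora16a each stood for 2 gene identifiers.

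Whole adrenal glands came from female B6CASTF1/J mice, an F1 hybrid strain, at 2 months of age. The series held 1 group of 2 libraries, numbered as biological replicates and called animal 1 and animal 2 here, and no treatment, mutation or second tissue. The labels conflict on the animals: the library descriptions give both the same animal number, the biosample descriptions give different ones, and the donor entry is shared. Each library was made with a strand-keeping kit from 300 ng of total RNA, reduced in ribosomal RNA and spiked with ERCC RNA. Expected counts on named genes summed to 34195089 in animal 1 and 35950207 in animal 2. All 6 cortex markers and all 5 medulla markers were at 1 TPM or more in both, with Star, which moves cholesterol into mitochondria, at 4122 and 4634 TPM, and Th, which makes catecholamine precursors, at 210 and 184 TPM. TPM is relative transcript number after division by length, scaled to a fixed sum over all rows. With 2 libraries of 1 group no test between the animals was possible: the smallest two-sided exact sign p would be 0.5. Levels are given as mean ± SD with n = 2, and ratios with exact intervals at 95% that cover counting error only.

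Small nucleolar RNAs are short noncoding RNAs that work as guides inside protein particles, mostly in the nucleolus, where ribosomal RNA is made. Box C/D RNAs hold a C box near the 5′ end and a D box near the 3′ end, bind fibrillarin, Nop56, Nop58 and Snu13, and direct 2′-O-methylation of the RNA they pair with. Box H/ACA RNAs fold into hairpins followed by an H box and a 3′ ACA, bind dyskerin, Gar1, Nhp2 and Nop10, and direct the change of uridine to pseudouridine. A few members of each class are needed for cleavage or folding of the ribosomal RNA precursor. In mammals most lie in introns of host genes and are released when the spliced intron is trimmed, so a guide and its host are made from the same primary transcript.

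The sequences of the most abundant C/D genes show the class features. Sequences are those of GENCODE M21 transcripts on mm10, written 5′ to 3′ with T, and capitals mark the C box letters TGATGA within the first 25 bases and the D box letters CTGA within the last 25. The first 5 below were the only C/D genes at 1 TPM or more in both libraries.
Snord15b: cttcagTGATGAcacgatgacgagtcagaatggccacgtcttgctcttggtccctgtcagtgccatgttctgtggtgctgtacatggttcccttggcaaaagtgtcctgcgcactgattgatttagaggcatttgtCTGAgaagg
Snord15a: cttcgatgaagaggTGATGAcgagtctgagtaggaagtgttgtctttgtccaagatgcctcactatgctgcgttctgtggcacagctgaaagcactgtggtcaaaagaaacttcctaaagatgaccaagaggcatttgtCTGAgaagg
Snord17: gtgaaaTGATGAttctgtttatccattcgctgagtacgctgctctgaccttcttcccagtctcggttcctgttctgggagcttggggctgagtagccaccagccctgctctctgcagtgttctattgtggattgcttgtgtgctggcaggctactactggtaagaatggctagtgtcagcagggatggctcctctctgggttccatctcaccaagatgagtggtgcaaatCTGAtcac
Snord22: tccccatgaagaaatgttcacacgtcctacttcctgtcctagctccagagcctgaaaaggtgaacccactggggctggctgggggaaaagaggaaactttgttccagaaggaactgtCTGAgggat
Snord118: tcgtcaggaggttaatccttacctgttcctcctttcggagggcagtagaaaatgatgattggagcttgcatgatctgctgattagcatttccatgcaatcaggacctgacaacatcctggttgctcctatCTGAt
Snord15b (chr7:99479563-99479707, minus strand) and Snord15a (chr7:99482785-99482932, minus strand), which guide methylation of 28S rRNA, lay in the same host gene, Rps3, and aligned with 107 identical bases in 162 alignment columns. Snord17 (chr2:144265979-144266216, minus strand) is the longest C/D gene of the set at 238 bases and lay in Snx5. Snord22 (chr19:8725866-8725991, plus strand), the U22 RNA of 18S rRNA maturation, lay in Snhg1. Snord118 (chr11:69073427-69073561, plus strand), the U8 RNA needed for 5.8S and 28S rRNA maturation, had no annotated host. In Snord22 and Snord118 TGATGA was not among the first 25 bases. Most C/D genes were shorter, as in these 3, shown because each stands for a group that received no counts.
Snord33: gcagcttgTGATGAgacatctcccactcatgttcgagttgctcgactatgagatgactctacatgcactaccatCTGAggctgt
Snord14c: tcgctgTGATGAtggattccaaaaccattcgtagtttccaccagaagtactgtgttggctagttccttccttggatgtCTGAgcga
Snord116l1: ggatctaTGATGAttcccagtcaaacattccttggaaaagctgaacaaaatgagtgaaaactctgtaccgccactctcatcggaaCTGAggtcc
Snord33 (chr7:45126864-45126947, minus strand) is 1 of 4 C/D genes in Rpl13a introns, Snord14c (chr9:40803583-40803668, plus strand) is a copy of the U14 RNA of 18S rRNA maturation in Hspa8, and Snord116l1 (chr7:59894620-59894713, minus strand) is 1 of the 17 Snord116 copies in Snhg14.

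The H/ACA genes that carried the results are shown next, first the near-identical pair Snora73a and Snora73b, the U17 RNA of 18S rRNA maturation, with capitals at the 7 of 205 positions where the copies differ.
Snora73a: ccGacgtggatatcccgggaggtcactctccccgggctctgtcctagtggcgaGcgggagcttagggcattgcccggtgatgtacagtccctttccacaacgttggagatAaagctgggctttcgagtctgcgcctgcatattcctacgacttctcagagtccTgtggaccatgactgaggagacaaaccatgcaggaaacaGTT
Snora73b: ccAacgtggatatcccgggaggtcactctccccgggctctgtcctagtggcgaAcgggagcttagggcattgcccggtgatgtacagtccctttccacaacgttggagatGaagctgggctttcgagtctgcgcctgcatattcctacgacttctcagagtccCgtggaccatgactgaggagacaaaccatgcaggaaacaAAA
Both lay in Snhg3 (Snora73a at chr4:132352775-132352979, minus strand, and Snora73b at chr4:132352322-132352526, minus strand) and shared 96.6% of bases. The next 3 are shown with the ACA within the last 8 bases in capitals, as the H/ACA genes with the highest whole-number level or with large differences between the animals.
Snora23: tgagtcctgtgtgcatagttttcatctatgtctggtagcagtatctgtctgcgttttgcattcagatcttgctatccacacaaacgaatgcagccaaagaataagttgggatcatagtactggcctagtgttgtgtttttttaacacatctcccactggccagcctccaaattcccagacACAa
Snora78: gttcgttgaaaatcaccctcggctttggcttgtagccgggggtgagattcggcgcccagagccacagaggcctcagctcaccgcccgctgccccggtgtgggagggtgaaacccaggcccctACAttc
Snora21: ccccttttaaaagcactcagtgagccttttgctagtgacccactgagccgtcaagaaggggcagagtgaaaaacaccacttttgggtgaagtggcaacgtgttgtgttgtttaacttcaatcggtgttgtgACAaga
Snora23 (chr7:110046364-110046547, plus strand) lay in Ipo7, Snora78 (chr17:24719676-24719803, minus strand) in Snhg9 and Snora21 (chr11:97781639-97781775, minus strand) in Rpl23.

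Searched on the transcript strand only, TGATGA stood within the first 25 bases of 70 of 99 C/D genes and of 0 of 42 H/ACA genes, against 0.744% of 6855 other transcripts of 60 to 250 bases. The letters CTGA stood within the last 25 bases of 98 C/D genes, 6 H/ACA genes and 11.7% of the other transcripts. Both boxes together were found in 69 C/D genes, 0 H/ACA genes and 0.088% of the others. ACA stood within the last 8 bases of 40 H/ACA genes, 7 C/D genes and 11.2% of the others. The H box letters ANANNA were common in every group, at 100% of H/ACA genes, 87.9% of C/D genes and 81.0% of the other transcripts. Median GC content was 44.7% for C/D and 48.5% for H/ACA genes, beside 47.2% for the others. C/D genes ran from 64 to 238 bases with a median of 84, and H/ACA genes from 121 to 205 bases with a median of 132.5.

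Length decided which genes could be counted at all. In the first deposited quantification, a pair of gene and transcript tables made from alignments to the transcriptome, the effective length was the annotated length less 99 bases for 53048 of 53055 genes of 100 bases or more. It was 0 for all 2395 genes under 100 bases, and none of these held a count in either library. That group held 87 of the 99 C/D genes and 0 of the 42 H/ACA genes. A listed 0 for those 87 genes is therefore no measurement of their level.

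**Figure D1:**
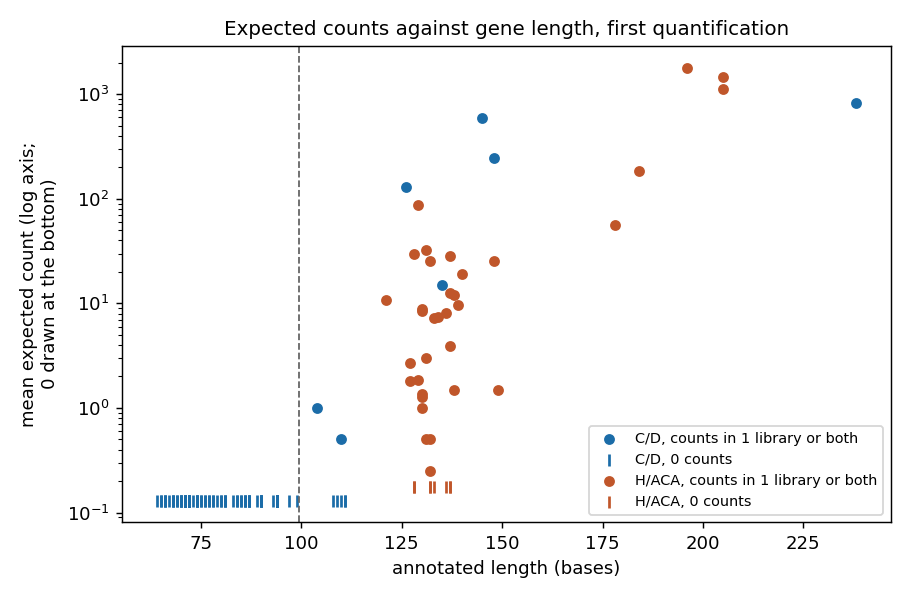
Mean expected count over the 2 libraries (log axis, 0 drawn at the bottom) against annotated length in bases for the 141 genes, C/D in blue and H/ACA in orange; the dashed line marks 100 bases. All 87 genes left of the line are C/D genes at 0, and 41 genes right of it had counts.

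Of the genes of 100 bases or more, 7 of 12 C/D genes (58.3%) and 34 of 42 H/ACA genes (81.0%) had a count in at least 1 library, beside 47.5% of all named genes. At 1 TPM or more in both libraries stood 5 C/D and 17 H/ACA genes, where 23.2% of all named genes did. In animal 1 alone the counts were 7 C/D and 28 H/ACA genes, and in animal 2 alone 5 and 19. The members just inside the limit in their lower library were Snora64 at 1.20, Snora7a at 2.56 and Snora81 at 3.10 TPM, and those just outside were Snora30 at 0.92, Snora47 at 0.73 and Snora62 at 0.61 TPM. At 100 bases or more, 5 C/D and 8 H/ACA genes had 0 counts in both libraries, each allowing up to 3 counts, or 0.0877 CPM (counts scaled to library total) in animal 1 and 0.0834 in animal 2. The 5 C/D genes were Snord67, Snord90, Snord89, Snord23 and Snord43, of 108 to 111 bases, and their hosts had mean levels of 0.605 TPM (Gm15832, host of Snord89) to 166 TPM (Rpl3, host of Snord43). Just above 100 bases a level is coarse, as 1 count of Snord13 was worth 5.72 TPM in animal 1 and 1 count of Snord17 was worth 0.206 TPM.

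**Figure D2:**
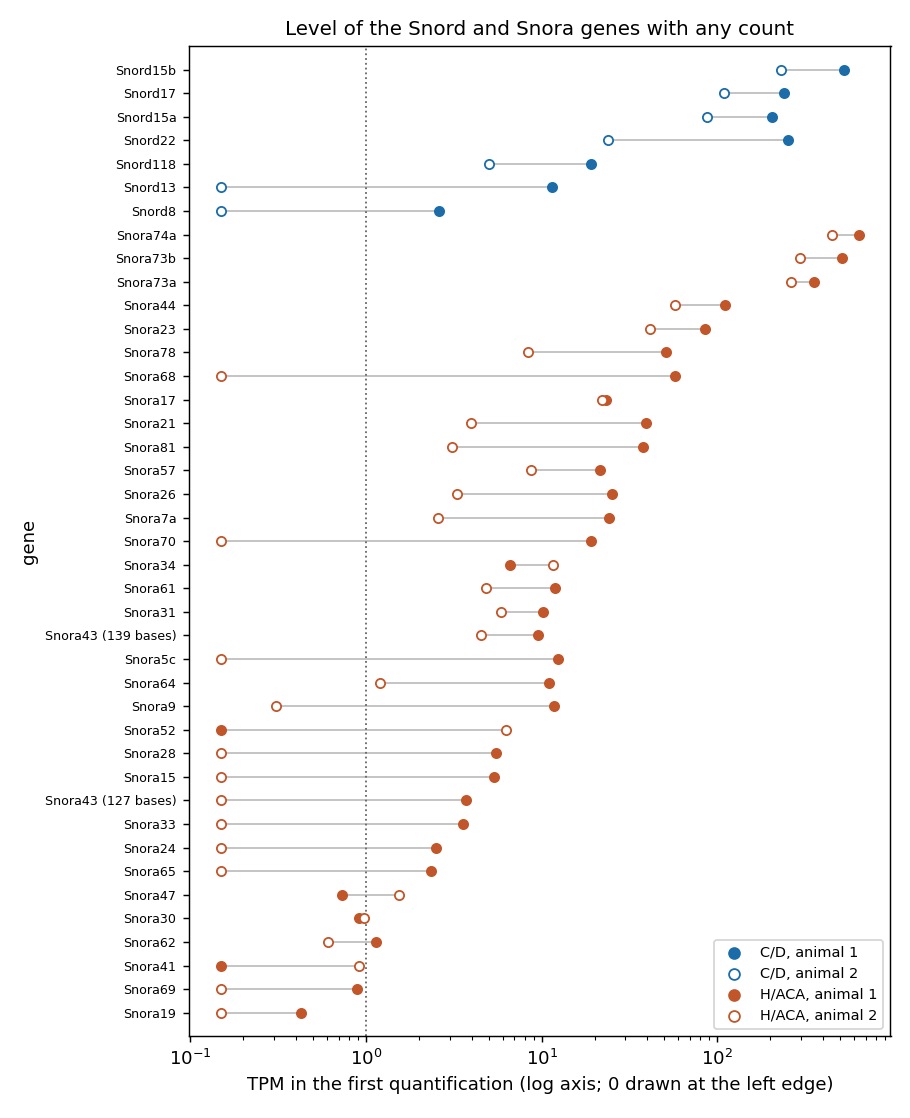
TPM in the first quantification (log axis, 0 drawn at the left edge) for the 41 genes with any count, with filled points for animal 1, open points for animal 2, C/D in blue and H/ACA in orange; the dotted line marks 1 TPM. Snora74a lies highest at 636 and 451 TPM, and most open points lie left of their filled points.

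The 7 C/D genes with counts are described by role. Snord15b, a 28S rRNA methylation guide, was the most abundant C/D gene at 524 TPM in animal 1 and 229 TPM in animal 2 (377 ± 209). Its paralog Snord15a, a guide of the same class, stood at 351 counts in animal 1 and 141 in animal 2. Snord17 held the most counts of any C/D gene, 1160 and 499, and stood at 239 and 109 TPM (174 ± 91.9). Each of these was higher in animal 1.

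Among the C/D RNAs of ribosomal RNA precursor cleavage and folding, Snord22 differed most between the libraries. It stood at 253 TPM in animal 1 and 24.0 TPM in animal 2, from 239 and 21.4 counts. Snord118 stood at 24 counts in animal 1 and 6 in animal 2. Snord13, the U13 RNA known for guiding acetylation of 18S rRNA, had 2 counts in animal 1 and 0 in animal 2, and Snord8 had 1 and 0, so neither level can be told from a few reads. The 4 U14 genes Snord14a, Snord14c, Snord14d and Snord14e were under 100 bases and could receive no counts. U3, the most abundant C/D RNA in textbook accounts, is annotated under Rnu3 names and lies outside the set. Its 10 rows summed to 2559 and 1727 TPM, all with counts split between copies.

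H/ACA levels were led by 3 genes. Snora74a, the U19 RNA, on chromosome 18 inside AC121821.1, had 2156 counts in animal 1 and 1445 in animal 2, at 636 and 451 TPM (543 ± 131). Snora73b had 1903 and 1027 counts, at 513 and 293 TPM (403 ± 156), and Snora73a had 1306 and 923 counts, at 352 and 264 TPM (308 ± 62.8). The Snora73 counts were not whole and the copies share all but 7 bases, so the split between the copies is uncertain. Snora23, a 28S rRNA guide, had whole counts of 253 and 116, at 85.1 and 41.3 TPM. Snora44, an 18S rRNA guide, stood at 110 and 57.6 TPM.

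The remaining H/ACA genes of the top 8 were low or uneven. Snora78 had 52 counts in animal 1 and 8 in animal 2. Snora68, a 28S rRNA guide, had 64.5 counts in animal 1 and 0 in animal 2. Snora17, another 28S rRNA guide, had 27 and 24 counts. Over all 42 H/ACA genes the median level was 4.61 TPM, or 6.06 from animal 1 alone and 0.765 from animal 2 alone, and over all 99 C/D genes it was 0, because most could not be counted. Among the 12 C/D genes of 100 bases or more it was 3.51 TPM, a value midway between Snord13 and Snord8 that rests on their few counts, with 7.02 TPM from animal 1 alone and 0 from animal 2 alone.

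Summed levels were concentrated in a few genes of each class. The top 4 C/D genes held 97.4% of C/D TPM in animal 1 and 98.9% in animal 2, and the top 3 H/ACA genes held 71.6% and 84.2% of H/ACA TPM. C/D genes took 0.125% of all TPM in animal 1 and 0.0454% in animal 2 (0.0854% ± 0.0566), and H/ACA genes 0.210% and 0.120% (0.165% ± 0.0636). Of the expected counts the shares were smaller, at 0.00759% and 0.0028% for C/D and 0.0182% and 0.0102% for H/ACA genes. Summed H/ACA TPM exceeded summed C/D TPM 1.67-fold in animal 1 and 2.64-fold in animal 2, a comparison of the countable members only. By counts per base of full length the class ratio was 2.16 and 3.31.

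The second deposited quantification, transcript tables made from the reads and a transcript index, listed all 141 genes at 0 in both libraries. The shortest transcript with a count there was Scarna6 at 265 bases in animal 1 and Gm25082 at 255 bases in animal 2, both longer than the longest member. The tables took off 327 and 316 bases from the length of transcripts of 1000 bases or more (medians), beside 99 bases in the first. Of genes with at least 10 mean counts in the first quantification, 308 of 17298 (1.78%) were at 0 in both libraries of the second, and of genes with any count 6.43% were. All 20 members with at least 10 mean counts and all 41 with any count were among them. No ratio between the quantifications could be given for any member.

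**Figure D3:**
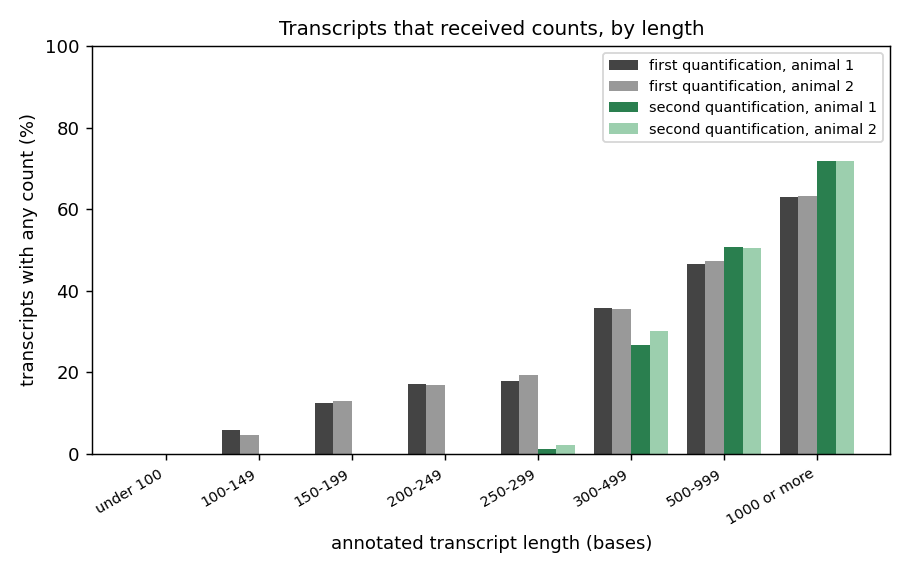
Percent of annotated transcripts with any count by annotated length in bases, for both quantifications and both animals. Under 250 bases the second quantification has no transcript with a count, and in the first 5.87% of transcripts of 100 to 149 bases had one in animal 1.

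Where a member lay inside an exon of a longer transcript, the counts of that transcript differed between the quantifications. This was so for 9 of the 20 members with at least 10 mean counts, and the containing transcripts held more counts in the second quantification than in the first for 9 of 9 in animal 1 and 8 of 9 in animal 2. The Rps3 transcript around Snord15b had 106 counts in the first and 1589 in the second in animal 1, and 82.2 and 782 in animal 2. The AC121821.1 transcript around Snora74a had 17.3 and 2766 counts in animal 1, and 11.4 and 2018 in animal 2. The Snhg1 transcripts around Snord22 had 182 and 582 counts in animal 1, and 180 and 274 in animal 2. The Rpl32 transcript around Snora7a had 87.0 and 3756 counts in animal 1, and 58.4 and 3721 in animal 2. Snora7a itself had 34.9 counts in animal 1 and 3.47 in animal 2 in the first quantification. The share of all transcripts with more counts in the second quantification was not taken. Whether reads of the guides were placed on these transcripts was not tested. Of the 24 members with counts that overlap an exon of another transcript, 2 had whole counts in both libraries within 0.005, and of the 17 that overlap none, 16 did. The levels of overlapping members, Snord15b, Snord22, Snora74a and Snora44 among them, are uncertain for that reason.

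Nearly all members with at least 10 mean counts were lower in animal 2. Of these 20, 19 had a lower scaled count in animal 2, where 52.2% of all genes with that minimum did. When scaled to the ERCC spike-ins, 18 were lower. More than 2-fold lower stood 5 of 5 C/D and 10 of 15 H/ACA genes, against 2.61% of all genes, and 0 stood more than 2-fold higher, against 2.66%. Over 2-fold in either direction stood 5.27% of all genes. As log2 of animal 2 over animal 1, the median ratio was -1.33 for C/D and -1.39 for H/ACA genes, beside -0.02 for all genes. Setting the 2 H/ACA genes at 0 in animal 2, Snora68 and Snora70, to a floor of 3 counts also gave -1.39. Both stay below the median at that floor, so it could not move. ERCC scaling moved the median of all genes to 0.19, with C/D at -1.12 and H/ACA at -1.18. In 18 of the 20 the counting interval lay wholly on the side of animal 1. The share of all genes with an interval off 1 was not taken. At high counts small shifts pass as well, as for Star (animal 2 over animal 1, interval 1.10 to 1.11).

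**Figure D4:**
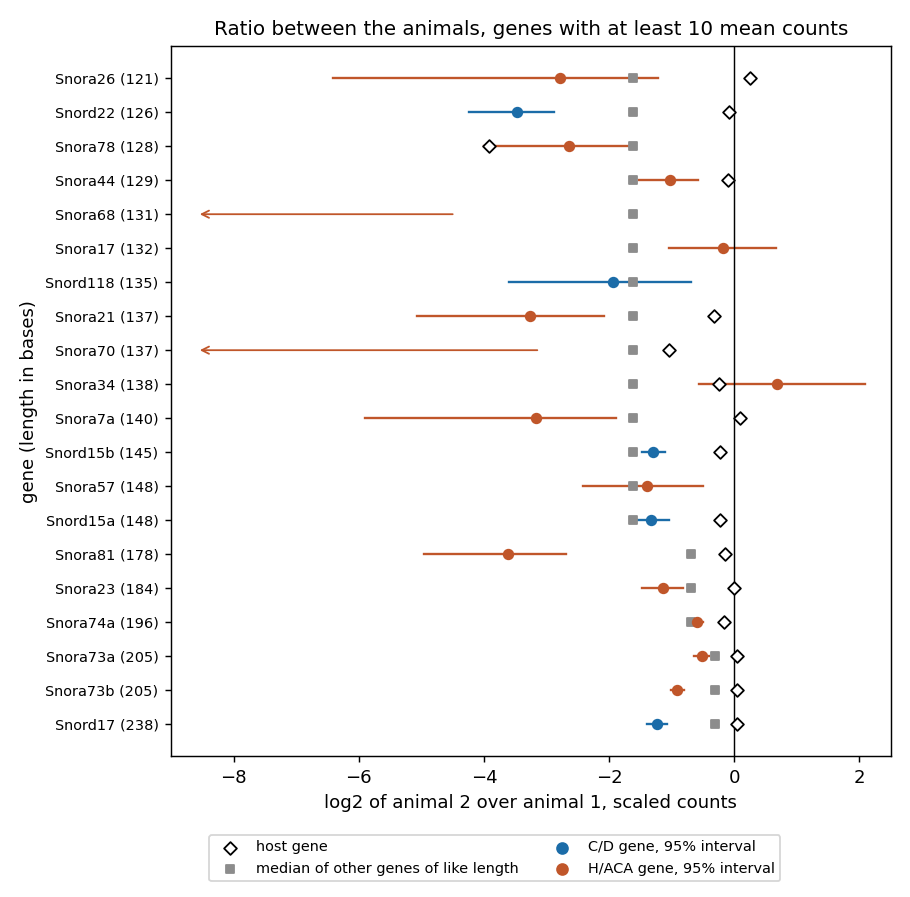
Log2 ratio of animal 2 over animal 1 in scaled counts for the 20 genes with at least 10 mean counts, ordered by length, with 95% counting intervals, beside the ratio of the host gene where drawn (diamonds) and the median of other genes in the same length range (grey squares). Arrows start at the bound of the 2 genes at 0 in animal 2, the Snhg9 diamond rests on 7 and 0 counts, and only Snora34 lies right of 0.

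Each of the 5 C/D genes was lower in animal 2. Snord22 was 11.3-fold lower in animal 2 (interval 7.36 to 18.9), Snord15a 2.52-fold (2.06 to 3.08), Snord15b 2.45-fold (2.16 to 2.79) and Snord17 2.35-fold (2.11 to 2.62). Snord118 was 4.04-fold lower with a wide interval of 1.61 to 12.1. Every C/D interval excluded an equal level as far as counting error goes. By its own counts Snord22 lay apart from the other 3 with at least 100 mean counts. It lay inside exons of 3 Snhg1 transcripts, and its counts were not whole. Its ratio thus also depends on how reads were split, which the interval leaves out. Those transcripts together held 182 and 180 counts in the first quantification, and 582 and 274 in the second, in animals 1 and 2. Snord15b also lay inside an exon of another transcript, with counts that were not whole.

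Of the H/ACA genes with at least 100 mean counts, Snora23 was 2.20-fold lower in animal 2 (1.76 to 2.77), Snora73b 1.87-fold (1.74 to 2.02), Snora74a 1.51-fold (1.41 to 1.61) and Snora73a 1.43-fold (1.31 to 1.56). Only Snora23 among them passed 2-fold. Snora74a lay inside an exon of another transcript, and the split between the Snora73 copies is uncertain, which these intervals leave out. Of all genes with at least 100 mean counts, 0.789% were more than 2-fold lower in animal 2, and 4 of 4 C/D and 1 of 4 H/ACA genes were.

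Larger ratios among H/ACA genes came from fewer counts. Snora78 was 6.57-fold lower in animal 2 (3.10 to 16.0), Snora21, a 28S rRNA guide, 10.5-fold (4.23 to 33.7) and Snora81 13.0-fold (6.43 to 31.2). Snora7a was 10.2-fold lower (3.72 to 59.9) and Snora26 8.07-fold (2.32 to 85.0). With animal 2 set to a floor of 3 counts, the ratio was 21.7-fold for Snora68 and 8.51-fold for Snora70. That floor leaves out the counting error of animal 1, and the lower limits of their 95% intervals were 17.0-fold and 6.36-fold. Snora81, Snora7a, Snora26, Snora68 and Snora70 lay inside exons of other transcripts and had counts that were not whole. Their ratios also depend on how reads were split, which the intervals leave out. Snora17 (1.14-fold lower, 0.632 to 2.06) and Snora34 (9 counts in animal 1 and 15 in animal 2, ratio of animal 1 over animal 2 0.607, 0.234 to 1.48) had intervals that held 1. Below the minimum, Snora52 was the member most tilted the other way, with 0 counts in animal 1 and 7.87 in animal 2.

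Other short genes, few of them protein coding, were mostly lower in animal 2 as well. Among genes outside the set with at least 10 mean counts, the median log2 ratio was -1.61 at 100 to 149 bases (41 genes), -0.69 at 150 to 199 (45 genes), -0.31 at 200 to 249 (33 genes), -0.30 at 250 to 299 (31 genes), -0.04 at 300 to 499 (358 genes) and -0.01 at 1000 bases or more. Over 2-fold lower stood 58.5% of those at 100 to 149 bases and 1.82% of those at 1000 or more. Protein-coding genes had a median of 0.56 at 150 to 199 bases (1 gene) and 1.15 at 200 to 249 (3 genes). At 250 to 299 bases it was 0.62 (1 gene), and at 300 to 499 it was -0.17 (136 genes). Taken against the median of other genes of like length, the members' median was -0.32 for C/D and -0.60 for H/ACA genes. Other genes of snoRNA biotype had a median of -1.72 (41 genes), scaRNA genes -0.82 (12 genes) and snRNA genes -0.84 (30 genes). Genes of these biotypes are also counted in the length ranges above, so the comparison at like length is partly with other small RNAs. The part of transcript length, or of what differed in the preparation of the libraries, in the lower values of animal 2 was not tested.

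Markers of tissue next to the adrenal and of its zones also differed between the libraries. All 4 brown fat markers were higher in animal 2 (summed 563 TPM in animal 1 and 1138 in animal 2), all 4 kidney markers were lower (19.7 and 0.18 TPM, with 3 of them at 0 in animal 2) and all 5 medulla markers were lower (1814 and 1481 TPM). Of the 6 cortex markers 4 were higher and 2 lower (15782 and 18166 TPM). Their part in the ratios of the guides was not tested. In whole tissue, fewer cells of a type and less RNA per cell cannot be told apart.

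Host genes were found on the same strand for 134 of the 141 genes, in 83 hosts, of which 61 were protein coding and 25 held more than 1 member. Where more than 1 gene spanned a member, the gene of highest mean TPM was taken, so host levels lean upward by this choice. Ribosomal protein genes named Rpl or Rps made up 23 hosts with 32 members and stood at a median of 252 TPM (17.1 to 712). Another 11 hosts, named Snhg or Gas5, are genes known mainly for the guides in their introns and held 36 members. The 7 genes with no annotated host were Snord118, Snord13, Snord104, Snora17, Snora57 and both Snora43 rows. In both libraries 79 hosts stood at 1 TPM or more, where 23.2% of all named genes did. In 48 of the 79 hosts every member was at 0. For 84 of the 87 genes under 100 bases the host stood at 1 TPM or more, so the host was measured where the guide could not be.

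The 4 hosts with the most members differed in level. Snhg14, the long host transcript of the imprinted Snord116 cluster, held 17 members and stood at 1.08 TPM in animal 1 and 1.20 TPM in animal 2, near the limit of 1 TPM. Rpl13a, which encodes a large-subunit ribosomal protein, held Snord32a, Snord33, Snord34 and Snord35a and stood at 551 and 446 TPM. Gas5 held Snord47, Snord78 and both Snord80 rows at 93.8 and 95.5 TPM. Snhg12 held Snora44, Snora61, both Snora16a rows and Snord99 at 10.9 and 9.90 TPM. All members in Snhg14, Rpl13a and Gas5 were under 100 bases, whereas 4 of 5 in Snhg12 were longer and 2 of these, Snora44 and Snora61, had counts.

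The imprinted C/D genes of chromosome 7 lie in the region tied to Prader-Willi syndrome in humans and are known from brain. The 17 Snord116 genes, of which Snord116l1 is shown above, comprised 4 distinct sequences, and 14 genes shared the commonest. Snord64 and Snord107 lay in Gm38393, at 0.57 and 0.43 TPM. All 19 were under 100 bases, so nothing on their level follows. Snrpn, a protein-coding gene of the same region, stood at 9.79 and 10.7 TPM. Snora35, an H/ACA gene of 128 bases in Htr2c, which encodes a serotonin receptor, had 0 counts, as had its host in both libraries.

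Host and member did not move alike between the animals. Of the 17 members with a host and at least 10 mean counts, 15 were further down in animal 2 than their host. These members had 15 distinct hosts, as Rps3 and Snhg3 each held 2 of them. Counted once per member, the hosts had a median log2 ratio of -0.09, with 11 of 17 lower in animal 2 and 2 over 2-fold apart. Of all genes with at least 10 mean counts, 52.2% were lower in animal 2 and 5.27% over 2-fold apart. Rps3 had a log2 ratio of -0.23 beside -1.29 for Snord15b and -1.33 for Snord15a, which it hosts. Snhg1 had -0.09 beside -3.47 for Snord22, and Snhg3 had 0.05 beside -0.52 for Snora73a and -0.91 for Snora73b. Rpl23 had -0.32 beside -3.27 for Snora21. The exceptions were Snora34, which was higher than its host Kansl2, and Snora78, whose host Snhg9 had 7 counts in animal 1 and 0 in animal 2. Genes outside the set had median log2 ratios of -1.61 at 100 to 149 bases and -0.01 at 1000 or more. For 9 of the members with at least 10 mean counts, Snord22 and Snord15b among them, the containing exon belonged to the host. Reads shared by both could be counted on either, and the split between the Snora73 copies is uncertain. The parts of read placement and of length in the gap between host and member were not tested. Levels of host and member within a library were unlike too, as Snhg3 stood at 11.4 and 14.0 TPM while Snora73b in its intron stood at 513 and 293 TPM.

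The mRNAs of the particle proteins differed less than 2-fold between the libraries. All 4 C/D core genes were at 1 TPM or more in both libraries, namely Nop58 (46.2 ± 2.19 TPM), Nop56 (38.5 ± 0.099), Fbl, the methyltransferase fibrillarin (34.6 ± 0.085), and Snu13 (28.8 ± 4.32). All 4 H/ACA core genes were too, namely Nop10 (53.6 ± 6.13 TPM), Nhp2 (27.1 ± 0.573), Gar1 (19.6 ± 2.28) and Dkc1, the pseudouridine synthase dyskerin (14.6 ± 0.969). Their median log2 ratios between the animals were -0.06 for C/D and -0.01 for H/ACA, and 0 of the 8 were over 2-fold apart. As animal 2 over animal 1, counting intervals excluded 1 for some, as for Snu13 (1.14 to 1.34) and Dkc1 (0.716 to 0.887). For others they held 1, as for Nop56 (0.938 to 1.06). Dkc1 was lower in animal 2 by scaled counts but stood at 14.0 TPM in animal 1 and 15.3 in animal 2. Nop56 and Nop58 are themselves hosts, each of a pair of C/D genes under 100 bases.

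The list drawn up for guide assembly and maturation was measured for 18 symbols, and 17 stood at 1 TPM or more in both libraries. Nop53 was highest (56.6 ± 3.09 TPM), and whether it acts in guide maturation was not examined. Next came Nolc1 (22.1 ± 4.18), a nucleolar chaperone, and Pih1d1 (19.6 ± 2.14), of the R2TP complex that assembles C/D particles. Exosc10 (15.9 ± 3.15), an exosome nuclease that trims guide ends, followed. Naf1 (5.33 ± 0.035 TPM) and Shq1 (3.03 ± 0.099), the H/ACA assembly factors, and Nufip1 (2.61 ± 0.332), the C/D assembly factor, were lower, and Zmynd10 was at 0.13 TPM. Of the 17, 9 were lower and 8 higher in animal 2, and their median log2 ratio was -0.06. The 12 genes of ribosome synthesis all stood at 1 TPM or more, from Polr1b, a subunit of RNA polymerase I (5.81 ± 1.09 TPM), to Npm1, nucleophosmin (105 ± 11.4), with a median log2 ratio of -0.08. Ncl, nucleolin, at 69.3 and 66.4 TPM, is host to Snora75 and Snord82, both at 0. In these lists 0 genes with at least 10 mean counts were over 2-fold apart, where 5.27% of all genes were.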

How the data were processed

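Total RNA of 2 adrenal libraries was measured. Per the text deposited with the tables, every table used mm10 and GENCODE M21, the first quantification came from transcriptome alignments and the second from the reads and a transcript index. Per the file headers the column names are those of RSEM and kallisto. Versions and settings of these programs are not given in the sources used here. For each row the authors deposited an expected count (an estimated count that shares reads between genes), a TPM value, and a length and effective length in bases. Second-quantification values were summed over the transcripts of a gene.

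Members were found by symbol, joined by gene identifier. A further 86 gene rows of the first tables had no name in the second and were left out. The members, the gene lists and the named genes were chosen with earlier results of these data known. The text names, per class, the 8 genes of highest mean TPM, the 5 of highest mean count, of those with 100 mean counts or more the 3 that differed most each way between the animals, the listed genes, and hosts of 4 or more members. Other genes, further hosts included, were chosen after their values were seen. The values of 1 host gene are not reported here.

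For scaling and intervals, expected counts were rounded to whole numbers. Libraries were scaled by TMM in edgeR 4.0.16 in R 4.3.3, with factors of 1.02 and 0.981, over all named genes. Log2 ratios used a prior of 0.5 counts. Intervals at 95% are exact Clopper-Pearson intervals of the split of a gene's counts. A gene at 0 was given a floor of 3 counts per library. Because the labels conflict on whether the libraries came from separate animals, the spread between them may be technical. Ratio and interval steps were tested on simulated data. No test between groups was made. A planned ratio between the quantifications gave no value, because every member was at 0 in the second. Alternatives were DESeq2 1.42.0 size factors, total counts, ERCC scaling, deposited TPM, other count minimums, the second quantification and leaving out each library, and those chosen after seeing the data were a length minimum, members free of other exons, the median of genes of like length, 1 count as the detection limit, and the ratio of the classes.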

Additional observations from a re-analysis of the deposited data

How the results depend on the processing

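No paired analysis was possible because the series holds 1 group of 2 libraries. In the second quantification C/D and H/ACA had 0 detected genes, a share of 0 and, for H/ACA, a median of 0 TPM; ratios between animals or quantifications had no value there. With at least 10 counts in both libraries 7 H/ACA genes were detected, and from single libraries 5 to 7 C/D and 19 to 28 H/ACA genes. Shares of expected counts were 0.0052% (C/D) and 0.0142% (H/ACA), and without the 7SL, 7SK and mitochondrial genes in the total the TPM shares were 0.178% and 0.341%. Single libraries gave shares of 0.0454% to 0.125% (C/D) and 0.120% to 0.210% (H/ACA), and medians of 0 and of 0.765 to 6.06 TPM. The C/D median was 139 TPM over genes with a count (205 in animal 1 and 24.0 in animal 2) and 3.51 TPM from 100 bases up (7.02 and 0). Both class medians of the log2 ratio stayed below 0 under every setting run. Medians for C/D and H/ACA were -1.12 and -1.18 with ERCC scaling, -1.60 and -1.60 from 1 count up, and -0.32 and -0.60 against genes of like length. For H/ACA they were also -1.31 with deposited TPM, -0.75 from 100 mean counts up and -1.26 for genes free of other exons, and 1 gene passed 2-fold from 100 mean counts up. H/ACA over C/D was 2.15 as the mean of the 2 libraries' ratios of summed TPM, 3.01 by counts, and 1.67 to 2.64 by library. The cause of these shifts was not tested, except where a setting keeps fewer genes. Depth limits the ratios of low genes, as for Snord118 at 24 and 6 counts (interval 1.61 to 12.1), and genes under 100 bases could hold no counts.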
